A study of Mus musculus with 9 samples.

Results

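Neutrophils are made in the bone marrow, and each step of their maturation is marked by the granule proteins made at that step. Promyelocytes fill the primary (azurophil) granules with serine proteases and myeloperoxidase, myelocytes and metamyelocytes fill the secondary and tertiary granules with lactoferrin, cathelicidin and related proteins, and band and segmented cells carry the chemokine and formyl peptide receptors with which they leave the marrow and find microbes. Because granule mRNAs are switched on and off in this order, the mRNAs present in a piece of marrow tissue carry information on the maturation stages it holds.

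The members are 34 genes of this sequence out of the 39179 genes listed for each library. They were grouped here by maturation stage from textbook roles into 8 early genes (Elane, Mpo, Prtn3, Ctsg, Ms4a3, Fcnb, Cebpe and Gfi1), 12 middle genes (Ltf, Camp, Ngp, Lcn2, Chil3, S100a8, S100a9, Mmp8, Pglyrp1, Hp, Cd177 and Olfm4), 9 mature genes (Ly6g, Retnlg, Csf3r, Cxcr2, Padi4, Anxa1, Fpr1, Fpr2 and Ltb4r1) and 5 genes shared by several stages and other myeloid cells (Cybb, Ncf1, Ncf4, Srgn and Lyz2). The list was chosen on results of the same libraries, among them the age contrast, so every age difference of a member below is a description and supports nothing.

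The study compared the OF, the bone-forming front below the growth plate, during and after active growth. Single capillaries with the cells around them were cut by LMD from unfixed frozen femurs of Tg(TIE2GFP)287Sato/J mice of C57BL/6 origin, in which a GFP reporter driven by Tie2 marks endothelial cells. There were 5 libraries from juvenile mice (4 weeks) and 4 from adult mice (12 weeks), and both genders were analysed together. A library pooled many microdissected pieces, so it is a mixture of cell types, in which more cells of a type and more RNA per cell cannot be told apart.

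Library totals ran from 4856833 to 8077362 counts, and on these totals the floor of 3 counts was worth 0.371 to 0.618 CPM, that is counts scaled by library size. The CPM values of genes below are scaled by effective library sizes instead, so the scales differ slightly. The floor covers counting error only. The 7 endothelial markers were all tested and 0 were called between the ages by edgeR, DESeq2 or voom, with 0 at an unadjusted p under 0.05, with summed levels of 493 to 801 CPM in juvenile and 550 to 676 CPM in adult libraries. Adult replicate 2 stood apart from the other adults in the neutrophil genes, as described below. Juvenile replicates 4 and 5 had 524 and 439 reads on the Y-linked gene Ddx3y against at most 1 in the other 7 libraries, and 11 and 1 reads on Xist, the RNA of the inactive X, against at least 2965, so every adult library had the female pattern. Results are therefore also given without adult replicate 2 and without juvenile replicates 4 and 5.

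At least 1 read was counted for 33 of the 34 members, Olfm4 (olfactomedin 4, of a subset of secondary granules) being at 0 in all 9 libraries. Of the 306 values (34 members in 9 libraries), 105 were 0, 12 were 1 or 2 reads and 189 were 3 reads or more. Low values could be uneven, as with Gfi1, which had 43 reads in juvenile replicate 2 and none in the other juvenile libraries. The members took 0.0204% to 0.0324% of all reads of the juvenile libraries. They took 0.695%, 0.544% and 0.546% of the reads of adult replicates 1, 3 and 4, and 0.0457% of those of adult replicate 2. Adult replicate 2 was thus above the juvenile range but far closer to it than to the other adults.

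Several members lie side by side in the genome (GRCm38, GENCODE). Prtn3 (chr10:79874476-79883174) ends 3.072 kb before Elane (chr10:79886247-79888215), S100a8 (chr3:90668978-90670035) lies 22.596 kb from S100a9 (chr3:90692632-90695721) on the other strand, and Ngp (chr9:110419747-110423012) lies 570.129 kb from Camp and 596.258 kb from Ltf (chr9:111019271-111042767). Parts of 5 promoters are shown, of Elane, Prtn3, S100a8, Ngp and Ltf. The choice did not follow abundance alone, since Mpo and S100a9, both more abundant than Prtn3, are not shown. Each is 120 bases, 5′ to 3′ on the plus strand, on which all 5 genes lie, placed upstream of the RefSeq start (GRCm38.p6) and clear of annotated exons, at chr10:79886127-79886246 for Elane, chr10:79879494-79879613 for Prtn3, chr3:90668858-90668977 for S100a8, chr9:110419627-110419746 for Ngp and chr9:111019151-111019270 for Ltf. Capitals mark matches on either strand to GAGGAA, a core of the sites bound by PU.1, to TTGCNNAA, a form of the core bound by C/EBP factors, and to CAACNG, the core of Myb sites. The S100a9 window placed in the same way held no match to these motifs, so the printed windows do not stand for all members.
Elane: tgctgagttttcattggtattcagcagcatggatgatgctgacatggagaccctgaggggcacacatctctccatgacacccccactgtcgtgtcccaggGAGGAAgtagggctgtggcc
Prtn3: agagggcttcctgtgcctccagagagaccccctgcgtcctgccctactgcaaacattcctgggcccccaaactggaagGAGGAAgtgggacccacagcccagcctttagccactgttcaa
S100a8: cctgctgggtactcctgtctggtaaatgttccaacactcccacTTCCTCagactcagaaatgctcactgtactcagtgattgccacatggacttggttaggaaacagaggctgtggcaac
Ngp: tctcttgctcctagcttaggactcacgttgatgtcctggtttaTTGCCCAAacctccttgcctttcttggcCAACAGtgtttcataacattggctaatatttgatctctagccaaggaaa
Ltf: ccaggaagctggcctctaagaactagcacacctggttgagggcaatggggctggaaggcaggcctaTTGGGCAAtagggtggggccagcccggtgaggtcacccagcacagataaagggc

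The neighbours Elane and Prtn3 both hold GAGGAA, beginning 85 and 95 bases before the RefSeq start. Ngp and Ltf, both on chromosome 9, hold the same C/EBP letters in opposite orientation, 138 and 75 bases before the start. In the 250 bases upstream of all 34 RefSeq starts found for 31 members, GAGGAA was present in 18 (52.9%), against 23.3% of 32851 promoters of the same length. TTGCNNAA was present in 10 (29.4%) against 9.56%, and CAACNG in 16 (47.1%) against 29.3%. GAGGAA stood in 4 of 8 early, 7 of 11 middle, 7 of 10 mature and 0 of 5 shared promoters, whereas all 5 shared promoters held CAACNG. These counts are of starts, not genes. Srgn, Gfi1 and Ly6g each enter with an additional start, and Ncf4, Cebpe and Hp have none. The motifs do not overlap in the windows printed, and a match in letters says nothing on whether a factor was bound in these cells.

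**Figure D1:**
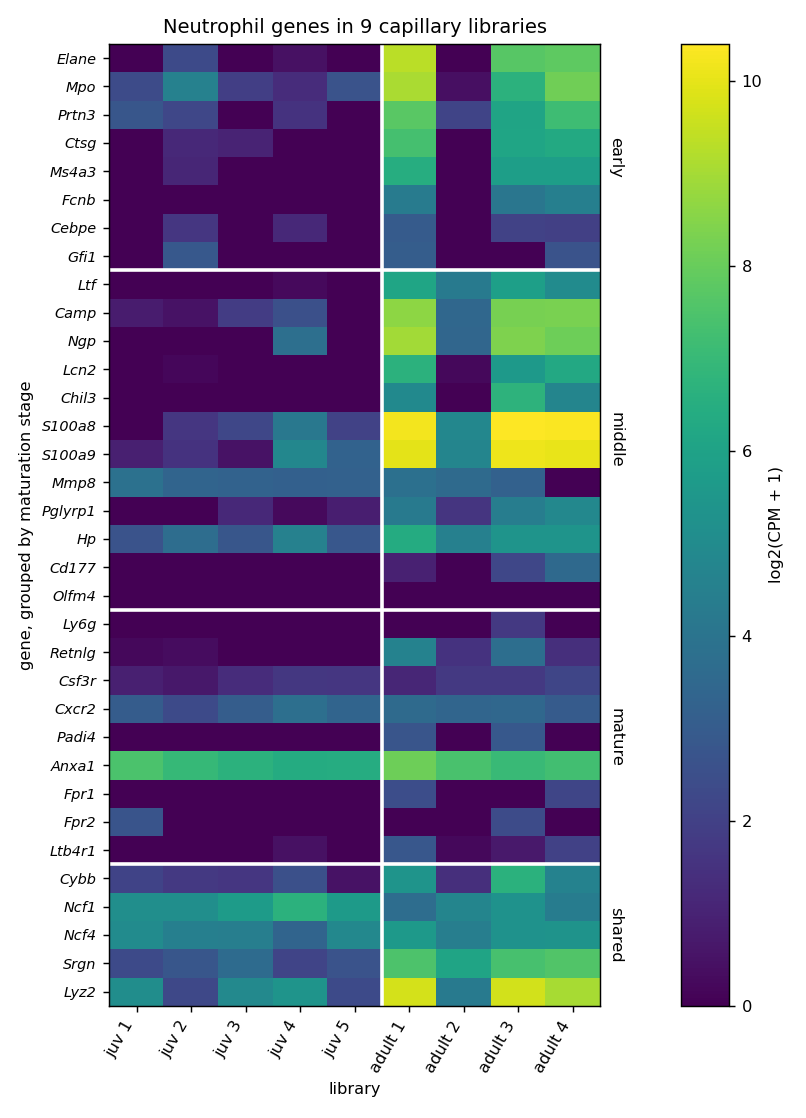
Levels of the 34 members (rows, grouped by stage) in the 5 juvenile and 4 adult libraries (columns), as log2(CPM + 1). Most early and middle genes are brightest in adult replicates 1, 3 and 4, while Mmp8, Cxcr2, Anxa1, Ncf1 and Ncf4 have reads in juvenile libraries as well, and Olfm4 is at 0 throughout.

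Early genes had most of their reads in 3 of the 4 adult libraries. Values are normalized counts, that is counts divided by the effective library size relative to the geometric mean over the libraries, and replicates are given in order. Elane, neutrophil elastase of the primary granules, had 0, 25.3, 0, 2.36 and 0 in juvenile libraries and 3986, 0, 1285 and 1408 in adult libraries. Mpo, the enzyme that makes hypochlorous acid, had 26.2, 141, 17.4, 9.43 and 33.3 in juvenile and 3353, 2.10, 631 and 1766 in adult libraries. Adult replicate 2 had no Elane read at all and fewer Mpo reads than any juvenile library, so the ages overlapped for both genes in spite of means of 1670 ± 1670 (SD, n = 4) against 5.53 ± 11.1 (SD, n = 5) for Elane.

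Prtn3, proteinase 3, had 36.4, 22.6, 0, 11.8 and 0 in juvenile libraries and 1322, 20.96, 422 and 898 in adult libraries. Ctsg, cathepsin G, was counted with 14 reads over the 5 juvenile libraries and 1403, 0, 554 and 624 reads in the adults. Ms4a3, a membrane protein of granulocyte and monocyte progenitors, had 8 juvenile reads, all in replicate 2, and 753, 0, 451 and 450 adult reads. In each of these genes the same 3 adult libraries were high and adult replicate 2 lay inside the juvenile range.

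Fcnb, the ficolin of early neutrophils, had no juvenile read and 166, 0, 129 and 171 adult reads, which is at least 25.1-fold higher in adults when each juvenile library is set to 3 counts. The transcription factor genes were far lower. Cebpe, needed for secondary granules, had 15 and 7 reads in juvenile replicates 2 and 4 and 59, 0, 25 and 23 in adults, and Gfi1, a repressor needed for granulocyte fate, had 43 reads in juvenile replicate 2 and 64, 0, 0 and 43 in adults. Juvenile replicate 2 thus had Gfi1 and Cebpe reads near those of adult replicate 4, and granule enzyme levels far below adult replicates 1, 3 and 4 but above adult replicate 2.

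In adult replicates 1, 3 and 4 the middle genes had the highest summed level of the stages, whereas in juvenile libraries and adult replicate 2 the mature sum, mainly Anxa1, was above the middle sum. S100a8 and S100a9, the subunits of calprotectin, took 33.6% to 47.8% of all member reads in adult replicates 1, 3 and 4. S100a8 had 0, 13.6, 22.7, 106 and 19.95 normalized counts in juvenile libraries and 7374, 169, 8480 and 8046 in adults. S100a9 had 5.69, 11.8, 2.67, 172 and 54.5 in juvenile libraries and 6315, 162, 7042 and 6736 in adults. Per kilobase of exon they were also the highest members, with adult means of 1381 CPM per kb for S100a8 and 1546 for S100a9, ahead of Lyz2 (416), Camp (337), Elane (270) and Ngp (227). All adults exceeded all juveniles for S100a8, whereas for S100a9 juvenile replicate 4 lay just above adult replicate 2.

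Camp, the cathelicidin precursor, had 4.55, 2.71, 16.0, 30.6 and 0 in juvenile libraries and 2472, 63.9, 1913 and 1958 in adults. Ngp, a cystatin-like granule protein, was at 0 in 4 juvenile libraries, at 80.1 in juvenile replicate 4 and at 3073, 61.8, 2090 and 1732 in adults. Ltf, lactoferrin, had a single juvenile read, in replicate 4, and 423, 113, 357 and 197 normalized counts in adults. Adult replicate 2 kept 34.8% of the mean of the other 3 adults for Ltf but only 3.02% for Camp, 2.69% for Ngp and 2.12% for S100a8.

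Lcn2, the siderophore-binding lipocalin, separated the ages by the narrowest margin possible, with 1 read in juvenile replicate 2, 1 read in adult replicate 2 and 873, 388 and 608 in the other adults. On pooled reads the adult over juvenile ratio was 1241 for Ltf (95% counting interval 222 to 49061) and 1657 for Lcn2 (297 to 65473). Pglyrp1, which binds bacterial peptidoglycan, had 0, 0, 8.01, 1.18 and 5.32 normalized counts in juvenile libraries and 112, 12.6, 128 and 175 in adults. Hp, haptoglobin, had 33.0, 75.9, 37.4, 144 and 38.6 in juvenile libraries and 525, 137, 255 and 253 in adults. For Hp the ages overlapped only in juvenile replicate 4 and adult replicate 2.

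Not all middle genes were low in juvenile tissue. Mmp8, neutrophil collagenase, had between 50.7 and 86.5 normalized counts in juvenile libraries and 82.7, 69.2, 52.0 and 0 in adults, so it did not share the pattern of the other granule genes. Chil3, a chitinase-like protein also made by macrophages, had no juvenile read and 257, 0, 835 and 204 adult reads, at least 70.5-fold higher in adults with juveniles at 3 counts each. Of its 75-base stretches, 13.0% also occur in another gene, mostly Chil4, so its counts are less certain. Cd177, a surface protein of a neutrophil subset, had no juvenile read and 8, 0, 29 and 85 adult reads, at least 6.74-fold higher.

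Most mature genes other than Anxa1 and Cxcr2 had few reads. Retnlg, a resistin-like secreted protein of late neutrophils, had 1.14, 1.81, 0, 0 and 0 normalized counts in juvenile libraries and 146, 11.5, 78.4 and 10.2 in adults. Every adult exceeded every juvenile, with a pooled ratio of 96.3 (counting interval 32.7 to 469). Here adult replicate 4, rich in early and middle reads, was as low as adult replicate 2.

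The defining surface marker Ly6g had 19 reads in adult replicate 3 and none elsewhere. Padi4, which citrullinates histones, had 50 and 51 reads in adult replicates 1 and 3 only, and Fpr1, a formyl peptide receptor, had 39 and 28 reads in adult replicates 1 and 4 only. Fpr2 had 30 reads in juvenile replicate 1 and 34 in adult replicate 3, with 20.9% of its 75-base stretches shared with other genes. Ltb4r1, the leukotriene B4 receptor, had 2 reads in juvenile replicate 4 and 52, 1, 5 and 24 in adults. Such values rest on few fragments, and which adult holds them changed from gene to gene.

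The receptors Cxcr2 and Csf3r, for chemokines and for G-CSF, showed no age difference past the test. Cxcr2 had 44.4, 25.3, 46.7, 81.3 and 57.2 normalized counts in juvenile libraries and 70.4, 59.7, 62.9 and 44.0 in adults. Csf3r had 3.62 to 14.1 in juvenile libraries and 7.25 to 22.0 in adults. Anxa1, annexin A1, which many other cells also make, had 1093, 772, 644, 516 and 535 in juvenile libraries and 1730, 1065, 833 and 940 in adults. It supplied 77.6% to 96.2% of all mature-stage reads of a library, so the sum of the mature genes is mainly Anxa1.

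Among shared genes, Srgn, the proteoglycan core that packs granule proteases, had 25.0, 37.1, 72.1, 21.2 and 33.3 normalized counts in juvenile libraries and 1140, 413, 1021 and 1187 in adults. The ages did not overlap, since the lowest adult (replicate 2, 413) lay above the highest juvenile (replicate 3, 72.1). Lyz2, lysozyme of neutrophils and macrophages, had 208, 23.5, 183, 258 and 25.3 in juvenile libraries and 5268, 112, 5111 and 3252 in adults. Cybb, the catalytic subunit of the phagocyte NADPH oxidase, had 20.5, 14.5, 13.4, 30.6 and 2.66 in juvenile libraries and 256, 10.5, 620 and 146 in adults.

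The cytosolic oxidase subunits Ncf1 and Ncf4 had fitted age differences of opposite sign, and neither was tested against the catalytic subunit. Ncf1 had 216, 216, 323, 633 and 310 in juvenile libraries and 75.5, 159, 241 and 122 in adults, and Ncf4 had 57.7 to 197 in juvenile and 130 to 297 in adult libraries. The Ncf1 exons overlap Gtf2ird2 on the other strand, Mpo overlaps Gm11505 and Prtn3 overlaps Plppr3. The strand setting of the counting is not given in the sources used here, so reads in these overlaps cannot be assigned with certainty.

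**Figure D2:**
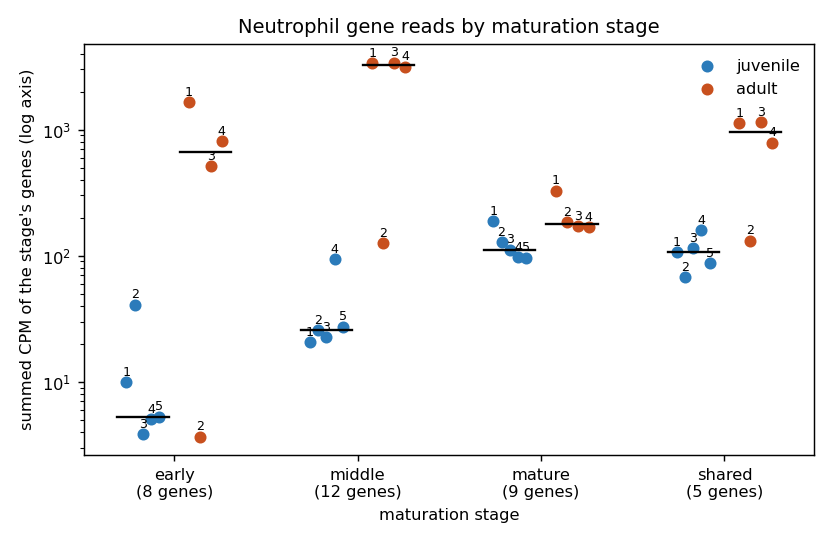
Summed CPM of the members of each stage (log axis) in every library, numbered by replicate, juvenile in blue and adult in orange, with bars at the medians. Early and middle sums of adult replicates 1, 3 and 4 lie above all juvenile libraries, adult replicate 2 lies at or near the juvenile values except for a middle sum of 126 CPM, and mature sums run from 96.4 to 188 CPM in juvenile and from 168 to 328 CPM in adult libraries.

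The members were read in the age test across all genes, edgeR's quasi-likelihood test with Benjamini-Hochberg adjustment. Its low-count filter kept 21 of the 34 members, and a gene with reads mainly in adult libraries can pass it. Of these, 14 were called higher in adult mice at an adjusted p under 0.05, beside 1.89% of the 13418 genes tested, and 0 were called higher in juvenile mice, beside 1.99%. Voom with quality weights called 4 members higher in adults (Hp, Ltf, Retnlg and Srgn), so that 10 of the 14 calls, all early ones included, ended under it. The share of all genes called by voom is not given here. DESeq2 and voom called 0 higher in juvenile mice, and at an unadjusted p under 0.05 edgeR had 1, Ncf1. The called members were 3 of 4 early genes tested (Elane, Mpo and Prtn3), 7 of 8 middle genes (Ltf, Camp, Ngp, S100a8, S100a9, Pglyrp1 and Hp), 1 of 4 mature genes (Retnlg) and 3 of 5 shared genes (Cybb, Srgn and Lyz2). As the list was chosen with this contrast known, nothing is read from these counts.

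The log2 fold change, adult over juvenile, was largest among the tested members for Ltf at 9.59 ± 0.83 (SE), followed by Elane at 7.99 ± 1.46 and S100a8 at 7.54 ± 1.11. The order rests on single libraries, since without juvenile replicate 4, which held the single Ltf read and all Ngp reads of the juveniles, the fitted values were 13.83 for Ngp and 11.16 for Ltf. Among the called members it was smallest for Hp at 2.15 ± 0.53. Srgn had 4.64 ± 0.42, the smallest standard error of the called members. The members not called lay between -1.18 ± 0.41 for Ncf1 and 2.14 for Cebpe, with 0.68 ± 0.27 for Anxa1, 0.72 for Ncf4, 0.67 for Csf3r, 0.22 for Cxcr2 and -0.25 for Mmp8. Ncf1 and Mmp8 were the tested members with lower fitted levels in adults, and neither was called.

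**Figure D3:**
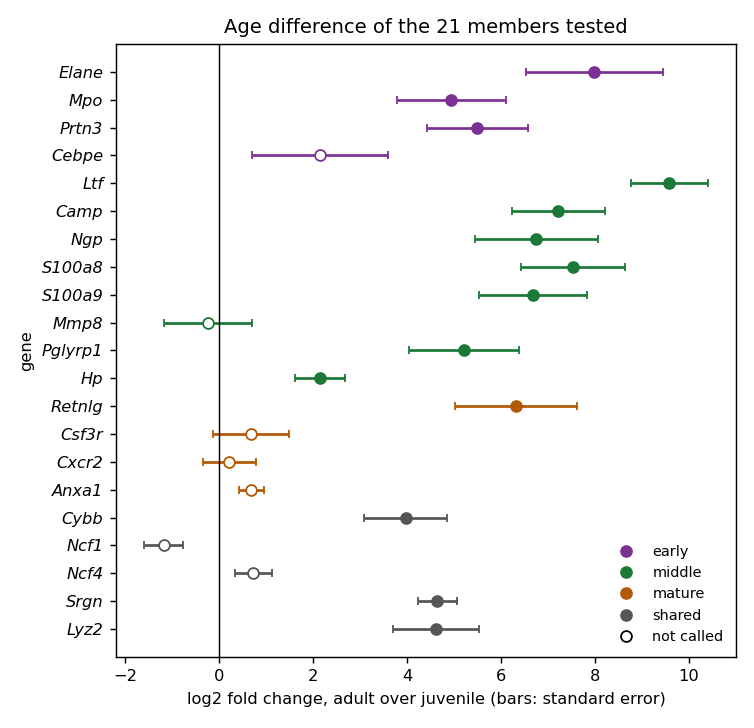
Log2 fold change, adult over juvenile, of the 21 members tested, with standard errors as bars, coloured by stage, and open circles for members not called. Early and middle genes other than Cebpe, Mmp8 and Hp lie between 4.94 and 9.59, while 3 of the 4 mature genes lie between 0.22 and 0.68.

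Without a filter on low counts, the median log2 fold change was 6.36 over 8 early genes, 7.22 over 11 middle genes, 4.71 over 9 mature genes and 3.97 over 5 shared genes, beside -0.04 over all 21512 genes with a read. With the 6 members that had adult but no juvenile reads set to their bounds, the medians were 5.22, 6.69, 0.68 and 3.97. The mature median thus rested on genes without juvenile reads.

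Of the 34 members, 7 had every adult library above every juvenile library (Ltf, Camp, Lcn2, S100a8, Pglyrp1, Retnlg and Srgn), beside 2.71% of the genes with a read. In 26 members adult replicate 2 lay within or below the juvenile range. The share over all genes is not given for this count, so nothing is read from it. It includes members, such as Fcnb, at 0 in this library and in all juveniles. When adult replicate 2 was left out, 23 members had no overlap, beside 4.7% of genes. Then 19 of 27 members tested were called, beside 2.46% of genes, the added ones being Ctsg, Ms4a3, Fcnb, Lcn2 and Chil3. Without juvenile replicates 4 and 5, 6 of 27 members tested were called (Camp, Ltf, Ngp, S100a8, S100a9 and Srgn), beside 0.223% of genes, so no early gene was called in the fit with 3 juvenile libraries.

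Early and late genes were then compared within each library. The early sum was 1663, 3.67, 516 and 813 CPM in adult libraries and 9.97, 40.9, 3.83, 5.07 and 5.30 CPM in juvenile libraries. The middle sum was 3378, 126, 3392 and 3155 CPM in adults and 20.7, 25.8, 22.6, 93.3 and 27.3 CPM in juveniles. The middle sums of adult replicates 1, 3 and 4 thus lay within 3155 to 3392 CPM, while their early sums ranged from 516 to 1663 CPM. Single middle genes varied more than their sum, as in Chil3 at 29.7, 103 and 25.6 CPM and Ltf at 67.4, 56.9 and 31.3 CPM in these libraries. Mature sums were 328, 184, 171 and 168 CPM in adults and 96.4 to 188 CPM in juveniles. Without Anxa1 they were 51.9, 13.9, 38.4 and 18.7 CPM in adults and 4.898 to 15.6 CPM in juveniles, with adult replicate 2 inside the juvenile range.

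Early genes made up 33.0% of the early and middle reads of adult replicate 1 (95% Wilson interval 32.5 to 33.4), 13.2% of adult replicate 3 (12.8 to 13.6) and 20.5% of adult replicate 4 (20.05 to 20.94). In adult replicate 2 the share was 2.84% (1.88 to 4.26) of 776 reads. Juvenile shares were 32.5%, 61.3%, 14.5%, 5.15% and 16.2%, on 124 to 524 reads, so the ages overlapped. Juvenile middle reads were 33.2% to 92.1% Mmp8 and Hp, against 26.1% in adult replicate 2 and 1.28% to 2.86% in the other adults. Without these 2 genes the juvenile early shares were 85.9%, 89.9%, 32.7%, 7.52% and 29.4% and the adult shares 33.6%, 3.7997%, 13.4% and 20.7%. The median difference, adult minus juvenile, was 0.613 percentage points with them and -15.7 without them, and the ages overlapped either way.

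**Figure D4:**
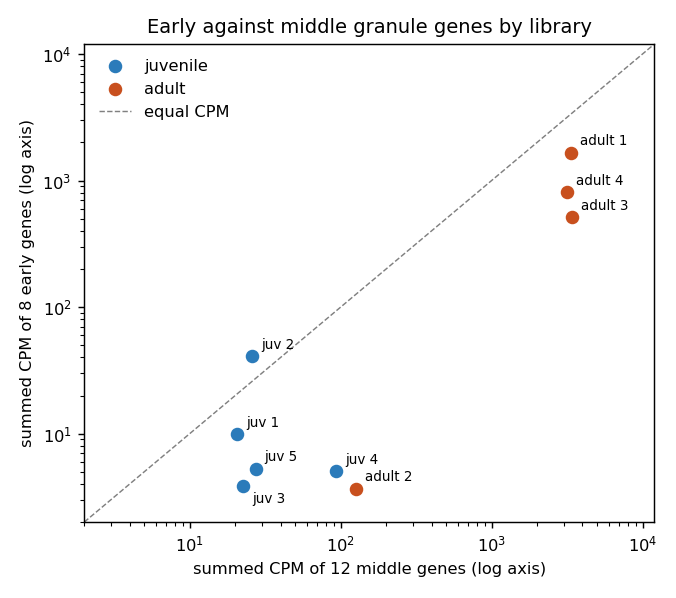
Summed CPM of the 8 early genes against that of the 12 middle genes in each library (both axes log), with a dashed line of equal CPM. Adult replicates 1, 3 and 4 share a middle sum near 3155 to 3392 CPM at early sums of 1663, 516 and 813 CPM, adult replicate 2 and juvenile replicate 4 sit low in early and raised in middle genes, and juvenile replicate 2 alone lies above the line.

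The mean log2 CPM of mature genes minus that of early genes was -4.03, 1.68, -2.34 and -4.31 in adults and 1.22, -1.60, 0.999, 0.85 and 1.17 in juveniles. The mean of the adults minus that of the juveniles was -2.78 on this scale, but adult replicate 2 had the highest value of all 9 libraries and juvenile replicate 2 was negative like the other 3 adults. The order of libraries was therefore not the order of ages.

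Adult replicate 1 was set against the mean of adult replicates 3 and 4 for the 28 members with at least 100 reads over the adults. Among early genes the ratio was 2.96 for Elane, 2.80 for Mpo, 2.002 for Prtn3 and 2.21 for Ctsg. It was 2.28 for Cebpe and 2.75 for Gfi1, each on 107 adult reads, but 1.55 for Ms4a3 and 1.03 for Fcnb. Middle genes went both ways. The ratio was 0.892 for S100a8, 0.917 for S100a9, 0.741 for Pglyrp1, 0.461 for Chil3 and 0.130 for Cd177. It was 2.07 for Hp, 1.63 for Lcn2, 1.61 for Ngp, 1.53 for Ltf, 1.28 for Camp and 3.18 for the sparse Mmp8. The mature genes Retnlg, Anxa1, Padi4 and Cxcr2 were also higher in adult replicate 1, at 3.29, 1.95, 1.83 and 1.32. The ratios thus did not fall steadily from early to mature genes. With 1 mouse against 2 these ratios carry no test.

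**Figure D5:**
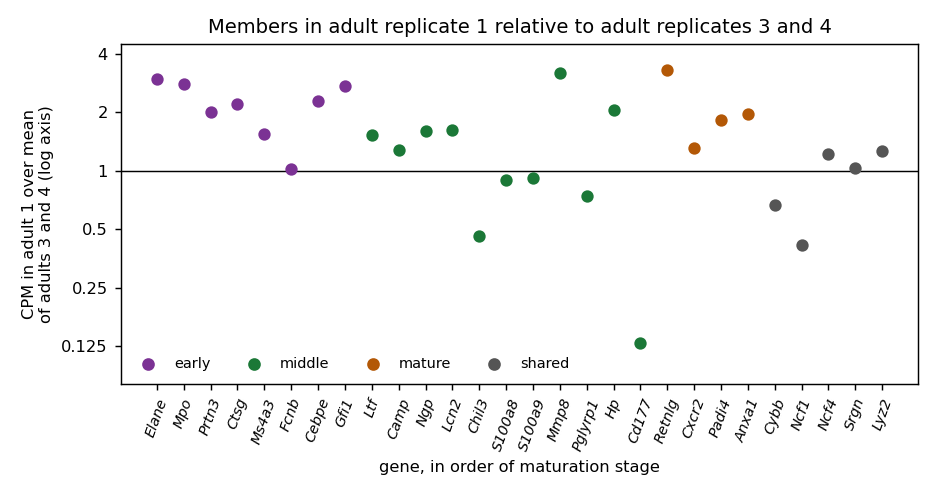
CPM in adult replicate 1 over the mean of adult replicates 3 and 4 (log axis) for the 28 members with at least 100 adult reads, in order of stage. Primary granule enzymes lie at 2.002 to 2.96, S100a8 and S100a9 near 0.9 and Cd177 lowest at 0.130.

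The level of adult replicate 2 relative to the other adults varied from gene to gene. As a share of the mean of the other 3 adults, it held 0% for Elane and 0.109% for Mpo, 2.38% for Prtn3, 2.12% for S100a8 and 2.47% for Lyz2. It held 34.8% for Ltf, 37.0% for Srgn and 39.9% for Hp, and 91.2% for Anxa1, 99.99% for Csf3r and 101% for Cxcr2. Marker sums of other cells in adult replicate 2 did not all go the same way. Its endothelial sum of 664 CPM lay within the 550 to 676 CPM of the other adults. Its megakaryocyte sum was 99.2 CPM, against 613, 62.4 and 4327 CPM in replicates 1, 3 and 4. Its erythroid marker sum was 1446 CPM, the lowest of the adults, against 1538, 2378 and 5738 CPM in replicates 1, 3 and 4. Its monocyte and macrophage marker sum was 1023 CPM against 1242 to 1885 CPM, and was mainly Csf1r (3784 reads) and Cd68 (2215 reads), which osteoclasts also express. The markers C1qa, C1qc, Adgre1, Mrc1 and Ccr2 had 1, 0, 0, 0 and 0 reads there, against 262, 155, 49, 115 and 238 in adult replicate 3. The other markers of this list, C1qb, Ly6c2 and Cx3cr1, were not all absent, with 54, 68 and 2 reads against 310, 296 and 108. Its chondrocyte marker sum was 3984 CPM against 583 to 938 CPM in the other adults, and its sum of adipogenic stroma markers was 306 CPM against 886 to 1143 CPM. Their part in the low neutrophil values of this library was not tested.

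Juvenile replicates 2 and 4 held most juvenile granule reads, of different stages. Replicate 2 had 28 of the 30 juvenile Elane reads, 156 of 225 Mpo reads and all 8 Ms4a3 reads. Replicate 4 had all 68 juvenile Ngp reads, 90 of 137 S100a8 reads and 146 of 207 S100a9 reads. Reads of early and of middle genes thus did not peak in the same juvenile library.

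Other cells in the tissue also express some members, so marker genes are given beside the results. The 10 monocyte and macrophage markers summed to 483 to 812 CPM in juvenile and 1023 to 1885 CPM in adult libraries, and 2 of 9 tested were called higher in adults, Csf1r and Ly6c2. The 10 erythroid markers summed to 115 to 676 CPM in juvenile and 1446 to 5738 CPM in adult libraries, with 8 of 10 called. Of 9 eosinophil, basophil and mast cell markers, Prg2, Epx, Prg3 and Fcer1a were at 0 in every library, and none passed the filter. The 7 osteoblast markers summed to 92092 to 116409 CPM in juvenile and 34002 to 51233 CPM in adult libraries. Of these, 4 were called higher in juvenile mice and 1, Bglap, higher in adults. Juvenile sums were mainly Col1a1 and Ibsp. In adult replicates 1 and 3 Bglap, with 81412 and 76398 reads, was near Ibsp, with 70570 and 78708. The part of these cell types in the member values was not tested.

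Of 9 regulators of granulopoiesis, 8 were tested and 1 was called higher in adults, Myb, a factor of proliferating progenitors, with a log2 fold change of 5.58 ± 1.13 and 0, 12, 1, 0 and 0 juvenile against 122, 87, 169 and 273 adult reads. Elane, Ctsg, Ms4a3 and Fcnb had no read in adult replicate 2, whereas Myb had 87 there, in the range of S100a8 (161), Ltf (108) and Ngp (59). Spi1, which encodes PU.1, had 300 normalized counts on average in juvenile and 602 in adult libraries and was not called, and Csf3, the gene of G-CSF, was at 0 in all libraries.

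Of 30 other neutrophil genes, 14 were tested and 2 were called higher in adults. Itgam, the integrin chain CD11b, had a log2 fold change of 1.82 ± 0.41, and Rac2, a GTPase of the oxidase, had 1.005 ± 0.26. Among genes that hold neutrophils in the marrow or recruit them, 2 of 3 tested were called higher in adults, the retention chemokine Cxcl12 at 2.59 ± 0.37 and the adhesion molecule Vcam1 at 2.97 ± 0.54, while Cxcl2 was at 0 throughout. For Cxcl12, adult replicate 2 had 1151 reads against 317 to 792 in juvenile and 5460 to 6947 in the other adult libraries, again between the ages.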

How the data were processed

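RNA was purified with the PicoPure kit, and libraries were made with SMART-Seq v4 and Nextera XT and sequenced paired-end at 75 bases. The authors mapped reads to mm10 (GRCm38) with TopHat2 and Bowtie2, and the deposited values are raw counts per Ensembl gene, with featureCounts named in the submitters' processing notes. Symbols were taken from GENCODE, which held 96.2% of the 39179 identifiers. SMART-Seq amplifies cDNA without molecular identifiers, so intervals and the floor of 3 counts cover counting error only.

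The age contrast was fitted in edgeR 4.0.16 with R 4.3.3 (filterByExpr defaults, TMM, quasi-likelihood F test, Benjamini-Hochberg over all genes tested, threshold 0.05), and the fits were tested on simulated data. CPM used effective library sizes, and mean log2 CPM a prior count of 2. Bounds divide the adult mean by 3 counts in each juvenile library. The members and lists were chosen with earlier results of these data known. Values in every library were given for called members, the 2 most abundant of each stage and Srgn, and genes of other lists were to be named by smallest p, at most 4 a list. Further genes named from those lists, among them those at 0 and in the closing section, were chosen after their values were seen. Alternatives were DESeq2 1.42.0 size factors and defaults, scaling without 361 blood genes, limma 3.58.1 voom with quality weights, no filter, at least 10 counts in every library, a replicate block, prior counts of 0.5 and 5, stage sums without Anxa1, libraries left out, and, chosen after seeing the data, bounds for members without juvenile reads and shares without Mmp8 and Hp. Nothing says whether libraries of 1 age came from separate litters, and p-values measure the spread between these libraries.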

Additional observations from a re-analysis of the deposited data

Results flagged for a closer look

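A library was set apart where its gap to the nearest library of its age took up more of that age's range than Dixon's 95% limit. Of 40 sets of libraries examined, 11 had such a library, where for normally distributed values chance would give about 2.0 (1 in 20). Counts with many zeros are not distributed in this way, and the sets share genes and libraries. The 11 are therefore no measure of an excess over chance. Juvenile replicate 2 stood above the other juveniles in early genes, with 25.3 normalized counts of Elane against 0 to 2.36, 141 of Mpo against 9.43 to 33.3, and an early sum of 40.9 CPM against 3.83 to 9.97. Juvenile replicate 4 stood above the others in middle genes, with 80.1 of Ngp against 0, 106 of S100a8 against 0 to 22.7, a middle sum of 93.3 CPM against 20.7 to 27.3, and 1.18 of Ltf against 0, which is a single read. Adult replicate 2 stood below the other adults, with 169 normalized counts of S100a8 against 7374 to 8480, 162 of S100a9 against 6315 to 7042, and a middle sum of 126 CPM against 3155 to 3392. Adult replicate 1 stood above the other adults in the mature sum, with 328 CPM against 168 to 184, of which 84.2% was Anxa1.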

How the results depend on the processing

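DESeq2 size factors and scaling without blood genes gave the same 14 called members. DESeq2 defaults gave 786 genes higher in adult and 725 higher in juvenile mice, against 253 and 267, 6 early genes called and a mature median of 4.13. Its 19 called members did not include Ngp. Voom with quality weights called 4 members (0 early, 2 middle, 1 shared) with a mature median of 0.83. Without the filter 6 early genes were called. With at least 10 counts in every library 3 members were called (0 early, 1 middle, 0 mature), and few members could then be tested. For voom and for these changes of filter, the share of all genes called is not given here, nor is the number of genes tested by DESeq2. Whether the members or the whole test changed cannot be told from these member counts. Same-numbered libraries did not deviate together (correlations -0.03 to 0.03), so the numbers pair nothing, and the replicate block gave 36 and 53 genes, 7 members (0 early, 0 mature) and medians of 3.29 (mature) and 2.83 (shared). Without juvenile replicates 4 and 5 there were 31 and 42 genes, 6 members (0 early, 0 mature, 1 shared) and a middle median of 8.97, from fewer libraries. With bounds the mature median was 0.68. The median early share differed by 0.613 percentage points (adult minus juvenile) and by -15.7 without Mmp8 and Hp. Leaving out each library gave 117 (juvenile replicate 5) to 345 (adult replicate 2) genes higher in adult and 145 to 306 in juvenile mice, 9 to 19 members, 2 to 6 early, 5 to 9 middle, 0 to 1 mature and 2 to 3 shared genes, medians of 2.94 to 5.13 (mature) and 3.09 to 4.39 (shared), early share differences of -7.54 to 4.26, and -0.57 to 0.19 for Mmp8, positive without adult replicate 4. The cause was not tested. Camp, Ltf, Lyz2, Ngp, Prtn3, S100a8, S100a9 and Srgn (8) were called with each library left out in turn.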

Other observations

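Among the 30 further neutrophil genes, 16 did not pass the low-count filter, and several of these had reads in the same adult libraries as the members. These and the other genes named here were chosen after their values were seen. Wfdc21, a small secreted protein, had 4 reads in juvenile replicate 2 and 922, 0, 573 and 366 reads in the adults. Trem3, a myeloid receptor, had none in juveniles and 112, 0, 66 and 47 in adults. Adult replicate 2 was at 0 for both. In contrast, Mmp9, gelatinase B, which osteoclasts also make, had 17625 to 51132 reads in juvenile and 23365 to 41655 reads in adult libraries and was not called, with a log2 fold change of -0.13 ± 0.23.

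Serpinb1a, an inhibitor of neutrophil serine proteases, and Slpi, a secreted inhibitor of elastase, are given beside their targets. Serpinb1a had 0, 4, 3, 22 and 1 reads in juvenile libraries and 44, 85, 43 and 200 in adults, so that adult replicate 2, without an Elane read, had more of it than adult replicates 1 and 3. Slpi had 27 to 84 reads in juvenile libraries and 283, 62, 11 and 1237 in adults. Neither was called. Cpa3, the mast cell carboxypeptidase, which progenitors also express, had no juvenile read and 177, 0, 40 and 29 adult reads, while the eosinophil genes Prg2 and Epx were at 0 in all 9 libraries.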
